A study of Mus musculus with 2 samples.

Results

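Long intergenic noncoding RNAs (lincRNAs) are transcripts longer than the small RNAs that hold no long reading frame and whose genes lie between protein-coding genes. The lincRNA genes described here carry the type lincRNA in GENCODE M1, the mouse annotation on the mm9 genome, and have at least 10 reads on the exons of their own strand in the 2 libraries together. Hosts of small nucleolar RNAs, a set of well-studied genes left out by name (the *Snhg* genes, *Gas5*, *Meg3*, *Rian*, *Mirg*, *Airn*, *H19*, *Kcnq1ot1*, *Neat1* and *Malat1*) and genes on the X and Y chromosomes were left out. Of 1273 lincRNA genes, 669 had no read, 461 had 1 to 9 reads and 143 had 10 or more. Of these 143, 9 were left out by name, a further 7 because they hold a small nucleolar RNA and a further 9 because they lie on X or Y, which left 118 genes. In all, 14859 genes of any type had 10 or more reads.

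RNA was sequenced from male mouse R1 embryonic stem cells (ESCs) and from neural progenitor cells (NPCs) made from them, with 1 library for each. The ESCs, at passage 18, grew with leukemia inhibitory factor on mitomycin-treated embryonic fibroblasts. For NPCs, the cells were kept as embryoid bodies without the factor for 4 days, plated on polyornithine and fibronectin with insulin, transferrin and selenium, and collected on day 7. Both libraries hold the RNA that stayed in solution after repeated removal of polyadenylated RNA with oligo(dT) beads and depletion of ribosomal RNA. They hold 4271306 mapped reads for ESCs and 4399729 for NPCs, so that 1 read equals 0.234 and 0.227 RPM (reads per 1000000 mapped reads). With 1 library for each cell type no difference has a replicate check. Intervals given here are exact 95% intervals that cover counting error only, and they compare these libraries, not the cell types. In such bulk samples fewer cells of a type and less RNA per cell cannot be told apart.

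Many lincRNAs are capped, spliced and polyadenylated by the enzymes that make mRNA. Most are present at lower levels than mRNAs, stay partly in the nucleus and are made in few cell types, and several act on chromatin or on neighbouring genes, while others bind microRNAs or proteins in the cytoplasm. In stem cells a subset follows the pluripotent state, and in the developing brain another subset lies beside genes for homeodomain and SOX factors.

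The marker genes of the 2 cell types were read first, as a check of the labels. Pluripotency markers had 2313 RPM summed over 10 genes in ESCs and 837 RPM in NPCs, and 7 of the 10 were over 2-fold lower in NPCs and *Lin28a* over 2-fold higher, with *Pou5f1* the one with most reads. Neural progenitor markers were over 2-fold higher in NPCs for 2 of the 5 genes with 10 or more reads and lower for 0, at a median log2 ratio of 0.82, with 62.7 and 74.1 RPM summed over the 8 genes found in the annotation and *Ncam1* the one with most reads, 100 and 104. *Zic1* had 1 and 22 reads, *Pax6* 1 and 12 and *Nes* 66 and 121, while *Msi1* had 99 and 60 and *Hes5* 1 and 2, and *Fabp7* and *Neurog2*, at 0 reads in ESCs, had 2 and 3 reads in NPCs. The 2 genes called higher, *Zic1* and *Pax6*, passed the minimum of 10 reads only through the NPC library. Their count is therefore not read against the 24.6% of all genes over 2-fold higher. Extraembryonic endoderm markers were over 2-fold higher in NPCs for 10 of 10 genes, at 327 RPM in ESCs and 7793 RPM in NPCs, led by *Col4a1*, and *Ttr* was at 0 in ESCs. Of these, *Gata6*, *Sox17*, *Sox7*, *Foxa2*, *Afp* and *Ttr* also passed the minimum only through the NPC library. Fibroblast markers summed to 68.6 and 66.4 RPM, 2 of the 7 with 10 or more reads over 2-fold lower in NPCs and 1 higher, with *Col1a2* the one with most reads and *Lum* at 0 in both libraries. The library labelled NPC thus held more endoderm than neural marker reads. The part of these cells in each lincRNA value was not tested.

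The RNA fraction makes the 3′ ends of the genes worth showing, since oligo(dT) beads take up RNA with a poly(A) tail. The sequences below are the last 50 bases of 8 genes described later that hold a common signal there, on the mm9 build and the gene strand, with the hexamer AATAAA, the commonest signal for cleavage and polyadenylation, in capitals. The GENCODE names of 5 of them differ from the names in use. *Gm11019* is *Lncenc1*, *1700020I14Rik* is *Oip5os1* (also called Cyrano), *C430002E04Rik* is *Platr4*, *2810011L19Rik* is *Tunar* and *4930500J02Rik* is *Platr14*.
Lncenc1, chr13:98266911-98266960, plus strand: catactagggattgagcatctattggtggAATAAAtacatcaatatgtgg
Tug1, chr11:3539797-3539846, minus strand: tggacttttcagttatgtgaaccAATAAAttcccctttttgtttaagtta
Oip5os1, chr2:119433189-119433238, plus strand: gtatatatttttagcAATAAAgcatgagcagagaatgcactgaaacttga
Platr4, chr3:41292726-41292775, minus strand: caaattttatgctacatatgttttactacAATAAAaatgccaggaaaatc
Tunar, chr12:106622092-106622141, plus strand: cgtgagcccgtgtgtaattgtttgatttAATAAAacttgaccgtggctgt
Platr14, chr2:104411537-104411586, plus strand: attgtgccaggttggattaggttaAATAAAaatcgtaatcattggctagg
Rmst, chr10:91544491-91544540, minus strand: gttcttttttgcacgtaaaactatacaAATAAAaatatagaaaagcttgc
Six3os1, chr17:85999991-86000040, minus strand: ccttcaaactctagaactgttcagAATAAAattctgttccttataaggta

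*Dleu2* and *Gm5091*, also described later, do not hold AATAAA in this window. Over the 118 genes, 68 (57.6%) hold AATAAA in the last 50 bases on the gene strand and a further 13 (11.02%) hold only ATTAAA. Of 12711 protein-coding genes with 10 or more reads, 61.5% hold AATAAA and a further 14.2% only ATTAAA. A match is a description of the annotated gene end, not of the end of the RNA that was read.

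Together the exons of the 118 genes took 3044 ESC reads and 3901 NPC reads. This is 0.0713% of the ESC library (interval 0.0688 to 0.0738%) and 0.0887% of the NPC library (0.0859 to 0.0915%), or 1.24 times more in NPCs (1.19 to 1.30). On the same scaling the median of all 14859 genes was also higher in NPCs, at a log2 ratio of 0.34. No gain of the class is therefore read from this factor. 3 genes, *Lncenc1*, *Tug1* and *Oip5os1*, took 45.9% of the lincRNA reads in ESCs and 48.9% in NPCs. The shares of the libraries depend on such genes and on repeated starts. Without *Lncenc1* they were 0.0462% and 0.0782%, and with each start position counted once 0.115% and 0.132%. The median gene had 16 reads in both libraries together, against 164 for protein-coding genes. Per length, the median level was 0.843 RPKM (RPM per kilobase of exon) in ESCs and 0.906 RPKM in NPCs, against 4.19 and 5.90 RPKM for protein-coding genes. The lincRNAs were therefore a thin layer of the fraction, and 70 of the 118 had under 20 reads.

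**Figure D1:**
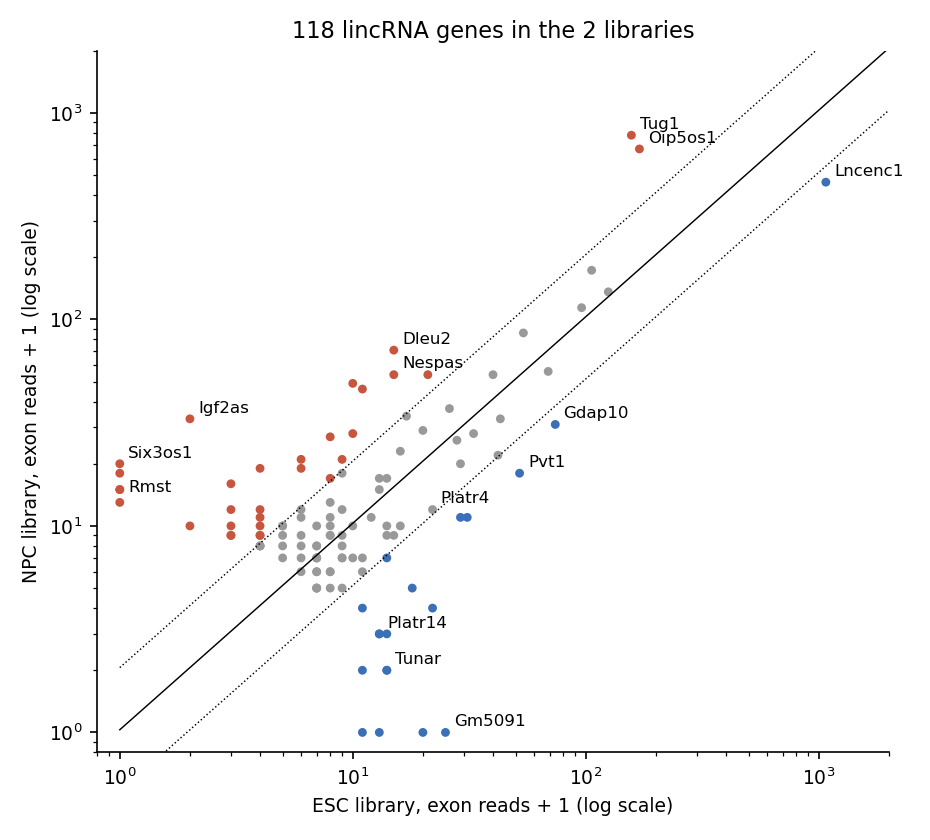
Exon reads of the 118 lincRNA genes in the ESC library (horizontal) and the NPC library (vertical), 1 read added, both axes logarithmic. The solid line marks equal RPM and the dotted lines 2-fold; red points (31) are over 2-fold higher and blue points (19) over 2-fold lower in NPCs, with *Lncenc1*, *Tug1* and *Oip5os1* far above the rest in reads.

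Ratios are given as log2 of NPC over ESC after scaling to the library totals, with 1 read added in each library. On this scale the median of all 14859 genes was 0.34, so a gene at 0 lies below the median gene. The median of the 118 lincRNA genes was 0.19, or -0.14 relative to the median gene. Against all genes, of which 24.6% were over 2-fold higher in NPCs and 12.8% over 2-fold lower, 31 of the 118 lincRNA genes (26.3%) were higher and 19 (16.1%) lower. No shift of the class as a whole is read from these shares, which move with the scaling. With library totals 62.0% of the lincRNA genes past 2-fold were higher in NPCs. Scaled by the median of the gene ratios this was 47.2%, with 25 higher (21.2% of the lincRNA genes) and 28 lower (23.7%), where 15.7% and 18.7% of all genes were. With each start position counted once it was 48.98%, with 24 higher (20.3%) and 25 lower (21.2%), where 12.0% of all genes were higher and 12.0% lower. Under both of these settings the shares of lincRNA genes past 2-fold lay above those of all genes in each direction, but 97 of the 118 lincRNA genes had 10 to 49 reads, as against 3717 of all 14859 genes, and the shares were not compared at matched read counts under these settings. The number of reads sets how far single genes can be read. Among the 21 lincRNA genes with 50 or more reads, 7 were over 2-fold higher and 3 lower, where 24.3% and 9.94% of all genes with 50 or more reads were. Of the 70 with 10 to 19 reads, 16 were higher and 11 lower, where 24.2% and 26.4% of all genes with 10 to 19 reads were. The counting interval of the ratio lay above 1 for 25 of the 118 genes and below 1 for 18, where it did for 42.2% and 20.3% of all genes, which have more reads and so narrower intervals.

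The genes were selected on their summed exon reads in both libraries and not on their ratio, so a gene with reads in only 1 of them had to reach 10 there. 5 of the 118 genes had no ESC read and 4 no NPC read. At the limit, 12 genes had exactly 10 reads, with 1 to 10 of them from ESCs and more NPC than ESC reads for 7. The 7 genes that met the rest of the rule with 9 reads had 1 to 9 ESC reads and more NPC than ESC reads for 3.

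*Lncenc1*, a noncoding RNA of naive ESCs that lies 181930 bases from the coding gene *Enc1* and is also listed as *Platr18*, was the lincRNA with most reads. Its 2 exons, 2724 bases in all at chr13:98204925-98266960, had 1072 reads in ESCs (interval 1009 to 1138) and 461 in NPCs (420 to 505). This is 92.1 RPKM in ESCs and 38.5 RPKM in NPCs, a level 2.40-fold lower in NPCs (2.15 to 2.68; log2 -1.26). The intervals of the levels do not meet. Its 59312 intron bases had 377 reads in ESCs and 235 in NPCs. The 3 start positions with most reads all lie in the second exon, and the 48-base reads from them are shown because together they make up a visible share of the exon reads.
Lncenc1 start 1, chr13:98265488-98265535, plus strand: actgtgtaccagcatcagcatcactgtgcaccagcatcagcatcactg
Lncenc1 start 2, chr13:98266799-98266846, plus strand: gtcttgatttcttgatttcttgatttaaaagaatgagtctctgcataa
Lncenc1 start 3, chr13:98264819-98264866, plus strand: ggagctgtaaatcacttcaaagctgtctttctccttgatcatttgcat

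The first of these starts had 94 ESC and 24 NPC reads, the second 39 and 28, and the third 51 and 14. The first read opens in a tandem repeat: the 19 bases accagcatcagcatcactg stand in it 2 times, 22 bases apart, and 14 times in the exons of the gene. With each start position counted once, the *Lncenc1* ratio was -0.88 in place of -1.26, in the same direction but within 2-fold.

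The list of stem cell lncRNAs holds 50 symbols, of which 11 name 10 different genes among the 118, with 4 over 2-fold lower, 3 over 2-fold higher and a median log2 ratio of -0.72, beside 12.8% lower, 24.6% higher and a median of 0.34 for all genes. *Tunar* (13 and 1 reads) and *Platr14* (12 and 2) passed the minimum of 10 reads only through the ESC library, so the count is not read against the background. A further 5 of its symbols are lincRNA genes under 10 reads, 3 are lincRNA genes that the rule leaves out, 9 have another gene type in GENCODE M1 and 22 were not matched to a GENCODE name.

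*Pvt1*, the noncoding gene downstream of *Myc* that is often amplified with it in tumours, had 51 exon reads in ESCs (38.0 to 67.1) and 17 in NPCs (9.90 to 27.2), 3.09-fold lower in NPCs (1.76 to 5.71). Over its 334515 intron bases the reads were 432 and 237. *Myc* itself, 47612 bases upstream, was higher in NPCs, with 21 reads in ESCs and 108 in NPCs (log2 2.27).

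*Tunar*, a conserved RNA of stem cells and the brain, had 13 ESC reads and 1 NPC read, 13.4-fold lower with an interval of 2.01 to 569. Its introns had 6 and 9 reads, so the exon difference was not seen there. Its nearest coding gene, the stem cell gene *Tcl1*, had 172 reads in ESCs and 29 in NPCs (log2 -2.57).

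The *Platr* genes were named as transcripts associated with pluripotency. *Platr14* had 12 reads in ESCs and 2 in NPCs, 6.18-fold lower (1.38 to 56.9), but 25 intron reads in each library. *Platr4* had 21 and 11 reads and *Platr22* (*Gm16880*) 13 and 9, and the intervals of both ratios hold 1 (0.906 to 4.52-fold lower and 0.588 to 3.94-fold lower). *Platr7* (*C330046G13Rik*) had 6 and 7 reads. Of the 5 *Platr* genes among the 118, the counting interval of the ratio excluded 1 for *Lncenc1* and *Platr14*. It held 1 for the other 3. *Platr14* passed the minimum of 10 reads only through the ESC library, so its interval is not read as support for a difference. Over all genes the interval lay below 1 for 20.3%. Outside the 118 genes, *Platr20* (*5133400J02Rik*, of another gene type) had 10 ESC and 17 NPC reads, and *Platr24* (*Kis2*) and *Platr21* (*C330013F16Rik*), which the rule leaves out, had 9 and 20 and 7 and 7. *Platr26* (*Gm1631*) and *Platr3* (*Gm14074*), both of another gene type, had 5 and 2 and 5 and 6. *Platr9* (*2410114N07Rik*), a lincRNA gene under 10 reads, had 1 and 0.

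Among the lincRNA genes of the stem cell list that the rule keeps, 3 were over 2-fold higher in NPCs. *Tug1*, a widely made lincRNA first found in the retina, had 156 reads in ESCs (132 to 182) and 779 in NPCs (725 to 836), 4.85-fold higher (4.08 to 5.79; log2 2.27). Its 4 exons at chr11:3539797-3548815 gave 5.47 RPKM in ESCs and 26.5 RPKM in NPCs, and its introns had 35 and 147 reads. *Morc2a*, which starts 681 bases away on the other strand, had 226 ESC and 647 NPC reads (log2 1.47).

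*Oip5os1*, a conserved cytoplasmic RNA at chr2:119420033-119433238, had 169 reads in ESCs (144 to 196) and 668 in NPCs (618 to 721), 3.84-fold higher (3.24 to 4.57). Per length this is 4.76 RPKM and 18.3 RPKM. Its introns had 5 and 13 reads. *Oip5*, whose start lies 2009 bases away on the other strand, had 57 and 41 reads. *Oip5os1* is known for a site that pairs almost fully with the microRNA miR-7. The mature microRNA from RefSeq is shown with its seed (bases 2 to 8) in capitals, followed by both 28-base stretches of the third exon that hold the matching letters GTCTTCC, in capitals.
miR-7a-5p: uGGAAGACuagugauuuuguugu
Oip5os1 match 1, chr2:119425680-119425707, plus strand: cttcaggttttttttttaatGTCTTCCa
Oip5os1 match 2, chr2:119427870-119427897, plus strand: agaacaacaaaatcaccaatGTCTTCCa

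Upstream of the second match 13 bases in a row pair with the 3′ part of miR-7, against 3 at the first. On the gene strand GTCTTCC stands 36 times in the exons of 27 of the 118 genes (22.9%) and 5568 times in 4170 of the protein-coding genes (32.8%), and among all of these the second *Oip5os1* match was the single one with 13 paired bases in the 20 bases before it. 14 NPC reads and no ESC read crossed the second match, and 1 NPC read and 2 ESC reads the first.

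*Dleu2*, the host of the miR-15a and miR-16-1 cluster and a deletion target in leukemia, had 14 reads in ESCs (7.65 to 23.5) and 70 in NPCs (54.6 to 88.4), 4.85-fold higher (2.71 to 9.33). Its introns had 45 and 114 reads. Both microRNAs share 1 seed, in capitals in the RefSeq sequences.
miR-15a-5p: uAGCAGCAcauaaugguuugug
miR-16-5p: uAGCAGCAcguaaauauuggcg

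The hairpin of *Mir16-1* was found in a *Dleu2* intron at chr14:62250717-62250809 on the minus strand, with 3 ESC and 4 NPC reads. Among the other hairpins located by their RefSeq sequence, *Mir205* in *4631405K08Rik* and *Mir29b-2* and *Mir29c* in *A330023F24Rik* lie in exons, and *Mir701* in *Ttc28*, *Mir1251* in *Rmst* and *Mir6368* in *2610307P16Rik* in introns. 1 NPC read overlapped *Mir1251* and none overlapped the other 5, in libraries whose fragments of 150 to 250 bp were not chosen for mature microRNAs. The host *A330023F24Rik* had 3 exon reads in ESCs and 11 in NPCs.

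The list of neural and developmental lncRNAs holds 30 symbols. 3 of them are among the 118 genes. *Six3os1* and *Rmst* passed the minimum of 10 reads through the NPC library alone, so the count of those higher in NPCs is not read against the 24.6% of all genes. 12 more are lincRNA genes under 10 reads, 9 have another gene type and 6 were not matched. *Six3os1*, transcribed across the forebrain and eye gene *Six3*, had no ESC read and 19 NPC reads (11.4 to 29.7), at least 6.15-fold higher when 0 is set to the floor of 3 reads in that library, with an exact counting interval of the ratio that starts lower, at 4.53. Its introns had 0 and 11 reads, and *Six3* had 1 and 10. *Rmst*, an RNA of the midbrain and of neurogenesis that partners SOX2, had no ESC read and 17 NPC reads (9.90 to 27.2), at least 5.50-fold higher against that floor (exact interval from 4.01), with 1 and 25 reads in its introns. In NPCs both lincRNAs lay under 1 RPKM, at 0.486 RPKM for *Six3os1* and 0.750 RPKM for *Rmst*.

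*Nespas*, the imprinted antisense RNA of the *Gnas* locus, had 14 and 53 reads, 3.67-fold higher in NPCs (2.01 to 7.17). Its introns had 34 and 64 reads, and *Gnas* on the other strand had 397 and 1051 (log2 1.36). Outside the 118 genes, *Mir22hg* (*2210403K04Rik*), of another gene type, had 6 and 65 reads (log2 3.19). Among the listed lincRNA genes under 10 reads, *Sox2ot*, which spans *Sox2*, had 9 reads in ESCs and 0 in NPCs, *Miat* had 1 and 7, and *Fendrr* 1 and 0.

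**Figure D2:**
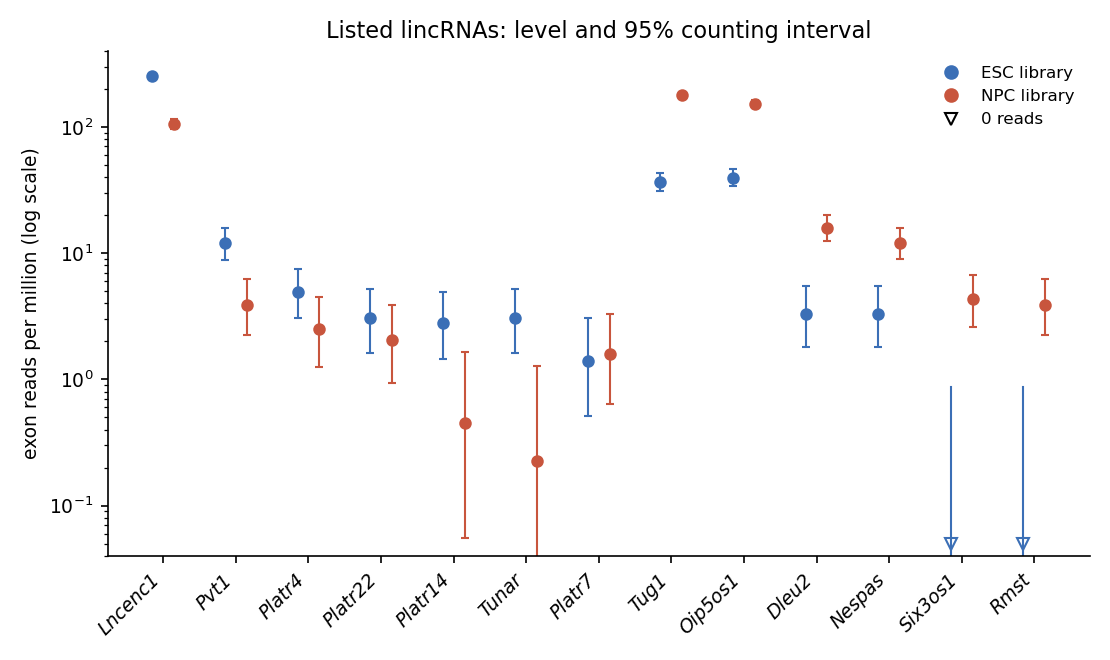
Exon RPM (logarithmic axis) of the 13 listed lincRNAs in the ESC (blue) and NPC (red) libraries, with exact 95% counting intervals; open triangles mark 0 reads, with a line up to the upper limit. *Lncenc1*, *Pvt1*, *Platr14* and *Tunar* sit lower in NPCs, *Tug1*, *Oip5os1*, *Dleu2*, *Nespas*, *Six3os1* and *Rmst* higher; the lower end of the *Tunar* interval in NPCs lies below the axis.

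Most of the remaining genes with 50 or more reads were named by the rule for read number or ratio. *BC029722*, the exception, had 25 and 36 reads. *Gdap10*, an RNA inside the NAD synthesis gene *Nampt* on the same strand, had 73 ESC and 30 NPC reads, 2.51-fold lower (1.62 to 3.97), and *Nampt* had 875 and 507 (log2 -0.83). *Bbip1*, which RefSeq types as protein-coding, had 9 and 48 reads, 5.18-fold higher in NPCs (2.51 to 12.0), but with 26 start positions among the 48. *Bbip1* passed the minimum of 10 reads only through the NPC library, so its interval is not read as support for a difference. On the opposite strand of its exons, that of *Pdcd4*, lay 33 ESC and 80 NPC reads. *D930016D06Rik* (*Thoc2l*), also protein-coding in RefSeq, had 10 and 45 reads (4.37-fold, 2.17 to 9.72), and *9930104L06Rik* 20 and 53 (2.57-fold, 1.51 to 4.54). The last of these was within 2-fold under other settings, with a log2 ratio of 0.93 when each start position was counted once and 0.98 with median-of-ratios scaling. *Atp10d*, with 105 and 172 reads, and *1810058I24Rik*, with 53 and 85, stayed within 2-fold at 1.59 (1.24 to 2.05) and 1.56 (1.09 to 2.24). *Tdrd5* had 41 and 21 reads, at the limit of 2-fold with a log2 ratio of -0.98. *4933404O12Rik* (68 and 55 reads), *E130317F20Rik* (32 and 27), *1190007F08Rik* (27 and 25) and *4632427E13Rik* (39 and 53) had ratios whose intervals hold 1.

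The genes of the next 2 paragraphs fall outside the rule for named genes and were chosen after their values were seen. Each of these lincRNA genes had under 10 exon reads in the library where it was lower. They thus met the minimum of 10 reads mainly through the other library. Their folds and intervals are descriptions and are not read as support for a difference. *Gm5091* had 24 reads in ESCs (15.4 to 35.7) and none in NPCs, at least 8.24-fold lower against the floor of 3 reads (exact interval from 6.1998), and its introns had 69 reads in ESCs and 2 in NPCs. *Gm807* had 19 and 0 reads, at least 6.52-fold lower against the floor (exact interval from 4.81). *Gm4419* had 12 and 0, at least 4.12-fold lower (from 2.86), and *B230206L02Rik* had 10 and 0, at least 3.43-fold lower (from 2.31). *Tunar* and *Platr14*, described above, also had a log2 ratio under -2, but their introns did not have fewer NPC than ESC reads. The remaining genes with a log2 ratio under -2 were *Gm17351* with 13 ESC reads and 1 NPC read, *Gm16201* with 21 and 3, *Gm16862* with 10 and 1, *2900052L18Rik* with 13 and 2 and *Gm13261* with 12 and 2. *D030068K23Rik*, at -1.89, had 17 and 4 exon reads and 51 and 9 intron reads. Introns also had fewer NPC than ESC reads in *Gm16201* (32 and 8), *Gm13261* (27 and 12), *B230206L02Rik* (10 and 5) and *Gm16862* (7 and 3). Apart from *Tunar* and *Platr14*, none of these genes is on the lists.

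On the NPC side, *Igf2as* had 1 and 32 reads, 31.1-fold higher (5.19 to 1265), beside *Igf2*, the imprinted growth factor gene on the other strand, with 136 and 2574 reads (log2 4.19). *C130021I20Rik*, which starts 681 bases from the homeodomain gene *Lmx1b* on the other strand, had 0 and 12 reads, at least 3.88-fold higher against the floor (exact interval from 2.70), and *Lmx1b* had 6 and 14. *Gm17525* had 0 and 14 reads, but 117 ESC and 124 NPC reads lay on the opposite strand of its exons, the strand of *Rbbp4*. *1700086O06Rik* also had 0 and 14 reads. The genes with a log2 ratio over 2 that are not described above were *4933421O10Rik* with 2 and 15, *A930024E05Rik* with 1 and 9 and *D030028A08Rik* with 3 and 18. Nearer 2-fold, *Gm14005* (*Morrbid*), a regulator of the neighbouring cell death gene *Bcl2l11*, had 3 and 10 exon reads (3.24-fold, 0.833 to 18.3) and 23 and 95 intron reads, with *Bcl2l11* at 184 and 249. *2410003L11Rik* had 7 and 26 exon and 5 and 28 intron reads. Of the 40 genes past 2-fold with under 50 reads, 24 were higher and 16 lower in NPCs, of the 97 lincRNA genes with 10 to 49 reads, and none had more than 40 reads. Among all genes with 10 to 49 reads, 25.6% were higher and 21.5% lower. The other 68 genes were within 2-fold, 57 of them with under 50 reads.

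An intron of *5430416N02Rik* held the tallest pile of reads in any of the 118 genes. The exons of this lincRNA, at chr5:100849861-100858535 on the minus strand, had 42 ESC and 32 NPC reads. Its introns had 325 and 749, most of them at 1 place in the intron at chr5:100855824-100858115, where GENCODE M1 annotates no other gene on that strand. The 81 bases around it are shown on the gene strand, with 9 bases at each end that are reverse complements of each other in capitals.
5430416N02Rik intron, chr5:100855899-100855979, minus strand: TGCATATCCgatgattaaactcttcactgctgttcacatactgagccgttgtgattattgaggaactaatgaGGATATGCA

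The start with most reads, at chr5 position 100855973, follows the first 6 bases of this sequence, and 215 ESC and 613 NPC reads began exactly there. Within 5 bases of it began 224 ESC reads (196 to 255) and 659 NPC reads (610 to 711), which is 72.7% and 92.0% of the read starts in that intron. These are 52.4 and 150 RPM, or 2.86-fold more in NPCs (2.45 to 3.34; log2 1.51), whereas the exon ratio of the gene was -0.42 with an interval that holds no change (0.452 to 1.20 times). 219 and 641 of these reads have a sequence found once in mm9, and no read lay on the opposite strand of the 81 bases. The sequence ends 75 bases before the next exon and begins 2136 bases after the previous one. In the intron of *Lncenc1*, by comparison, the most used start had 25 and 12 reads, and in *Tug1* 0 and 10. In *Gm17317*, whose reads have few sequences found once in the genome, it had 14 and 34.

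**Figure D3:**
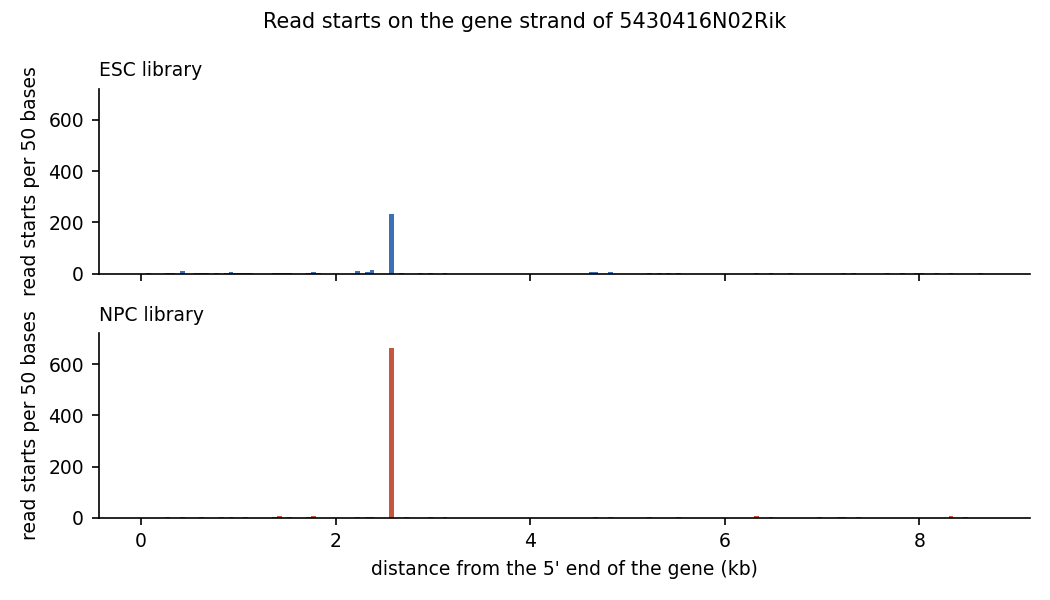
Read starts on the gene strand of *5430416N02Rik* in bins of 50 bases (vertical, count) by distance from the 5′ end of the gene in kilobases (horizontal), ESC library above and NPC library below on the same scale. A single bin in an intron stands out in both libraries, holding most of the 224 ESC and 659 NPC read starts, and the exons stay close to 0.

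Reads of the 118 genes covered introns more than those of protein-coding genes did. For the 90 lincRNA genes with at least 1000 intron bases, 52.5% of gene-strand reads in ESCs and 47.96% in NPCs lay in introns, against 15.97% and 14.001% for 11644 protein-coding genes counted the same way. The pooled shares weigh the genes with most reads most. Of the 2859 ESC and 3167 NPC intron reads, *5430416N02Rik*, with the pile described above, had 325 and 749. *Gm17317*, with few reads of sequences found once, had 509 and 543. Gene by gene, among those with at least 5 exon reads in the library, the median intron share was 46.7% in ESCs (69 genes) and 37.5% in NPCs (77 genes), beside 16.4% and 14.7% for protein-coding genes. Per base, the median intron density was 16.2% of the exon density in ESCs and 12.1% in NPCs, beside 3.20% and 2.73%. 40 of the 90 genes had more intron than exon reads in ESCs and 36 in NPCs, beside 1177 and 739 of the 11644 protein-coding genes. Since lincRNA genes had fewer reads than protein-coding genes, these shares were not compared at matched depth. The lengths include repeats, in which the paper left out reads, so the densities are not corrected for them.

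Along the exons, the reads of the lincRNAs began nearer the 5′ end than those of protein-coding genes. In ESCs 61.4% of 3014 read starts (59.7 to 63.2%) lay in the 5′-most 50% of the joined exons and in NPCs 55.3% of 3839 (53.7 to 56.9%), against 49.4% and 47.9% for protein-coding genes. Among genes with at least 10 read starts, most starts lay in this 5′ part for 33 of 49 lincRNA genes in ESCs and 32 of 54 in NPCs, or 67.3% and 59.3%, beside 51.5% and 46.4% of protein-coding genes. The 3 genes with most reads had different shapes. *Lncenc1* starts peaked in decile 3 of the joined exons, counted from the 5′ end, with 18.7% in ESCs and 21.5% in NPCs. *Tug1* had few starts in deciles 4 and 5, down to 1.94% in ESCs and 2.19% in NPCs, and 27.7% of its ESC starts but 16.6% of its NPC starts in decile 2. *Oip5os1* had its starts in 2 blocks, deciles 1 to 3 and deciles 7 and 8. The paper left out reads in repeat-masked regions, and whether the sparse deciles hold such regions was not tested.

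**Figure D4:**
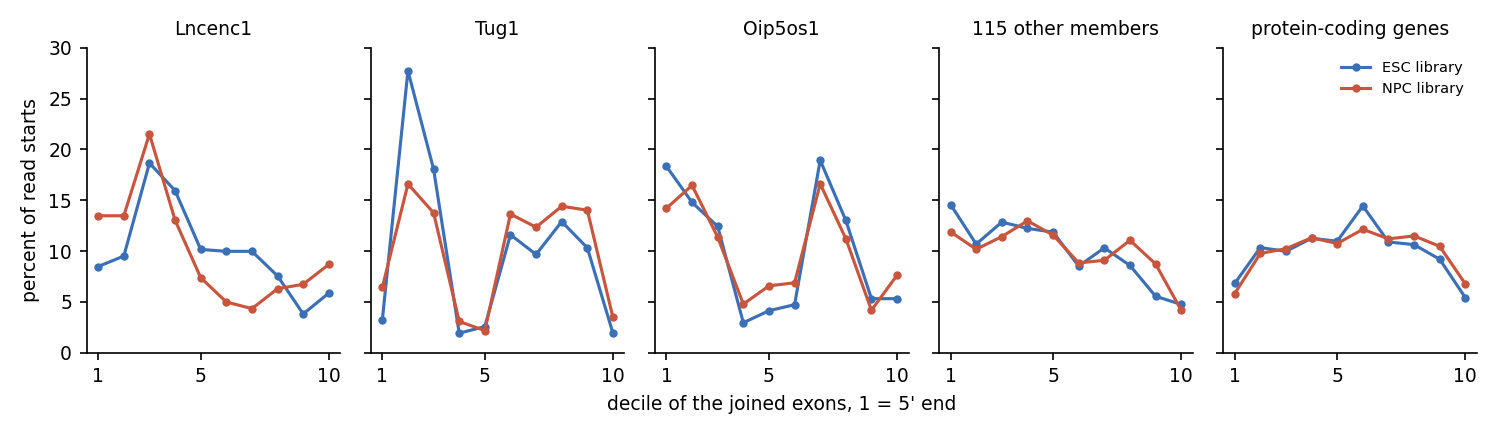
Percent of read starts (vertical) in each decile of the joined exons from the 5′ end (horizontal) in the ESC (blue) and NPC (red) libraries, for *Lncenc1*, *Tug1*, *Oip5os1*, the 115 other lincRNA genes together and protein-coding genes together. *Tug1* and *Oip5os1* have few starts in the same middle deciles in both libraries, *Lncenc1* peaks in decile 3 in both but has its lowest decile in different places, the 115 genes fall towards the 3′ end, and protein-coding genes are flatter.

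Reads on the lincRNA exons spread over more start positions than those on coding exons. Distinct starts per 100 reads came to 58.0 in ESCs and 62.5 in NPCs, against 41.2 and 42.0 for protein-coding genes, which had more reads each. Of the reads, 88.5% and 88.2% had a sequence found once in mm9. 5 genes had under 50% such reads and their counts are uncertain, because near-identical copies elsewhere share them. *Gm10060* (124 and 135 reads) had 2 and 5 such reads, *Gm4349* (95 and 113) 5 and 8, and *Gpr137b-ps* (11 and 10) none, while *Gm17317* and *6330549D23Rik* had 18.2% and 48.98%.

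The type lincRNA of GENCODE M1 was not borne out for every gene. By symbol or synonym 103 of the 118 genes were found in the RefSeq table, assembly GRCm38.p6, which types 83 as lncRNA, 1 as antisense RNA, 11 as protein-coding, 7 as transcribed pseudogene and 1 as pseudogene. *Tdrd5*, *Bbip1*, *Ttc28* and *1190007F08Rik* (*Smim1*) are among the protein-coding ones. The 84 genes of a noncoding RNA type had a median log2 ratio of -0.04, with 21 over 2-fold higher and 17 lower, and the 11 protein-coding ones a median of 0.63, with 5 higher and 0 lower, beside 24.6% and 12.8% of all genes. The class as GENCODE M1 draws it is thus mixed by RefSeq type.

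By place, 42 genes overlapped a coding gene on the other strand (35.6%), 24 started within 2000 bases of a coding gene that runs the other way (20.3%), 6 lay within a coding gene on the same strand and 2 within 5000 bases downstream of one. The other 44 (37.3%) had none of these places, and lay 631 to 734822 bases from the nearest coding gene with a median of 17990.5. The 42 genes that overlapped a coding gene on the other strand and the 6 within one were therefore not intergenic. The 44 genes in none of these places had a median log2 ratio of -0.19, with 8 over 2-fold higher (18.2%) and 10 lower (22.7%). The antisense genes had a median of 0.82, with 16 higher (38.1%) and 5 lower (11.9%), and the divergent genes 0.04, with 4 higher (16.7%) and 3 lower (12.5%). Over all genes the median was 0.34, with 24.6% higher and 12.8% lower. Genes are not replicates, and the differences between the places were not tested.

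**Figure D5:**
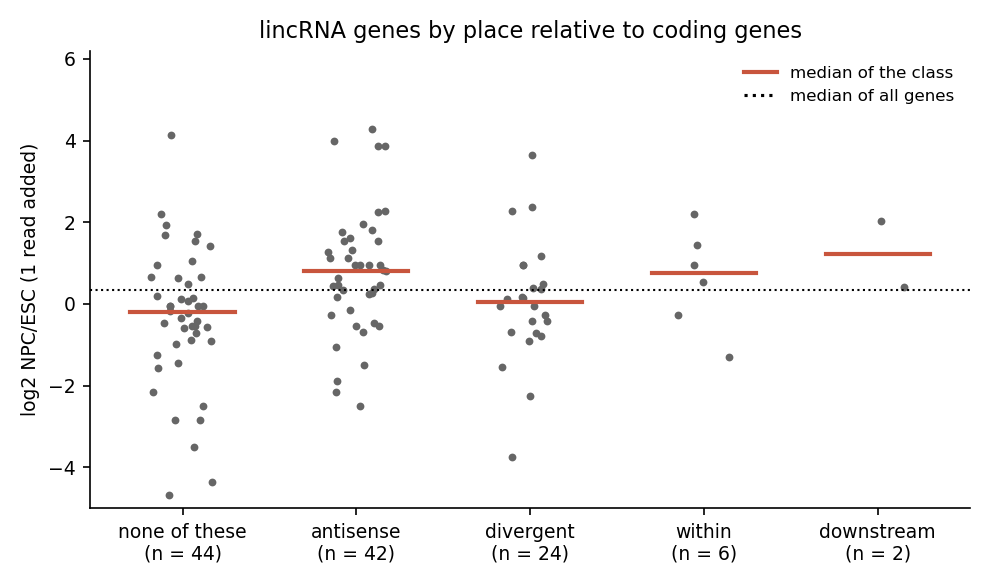
Log2 NPC/ESC ratio (vertical, 1 read added) of each lincRNA gene, by its place relative to protein-coding genes; red bars are class medians and the dotted line is the median of all genes, 0.34. The median of 42 antisense genes, 0.82, lies above the line and that of the 44 genes in none of these places, -0.19, below it, with wide overlap of single genes.

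Antisense genes can be read only as far as the strand of the reads is kept. On the exons of lincRNA genes that face no exon of another gene, 1.95% of reads in ESCs and 1.59% in NPCs lay on the opposite strand. On the exons of all 118 lincRNA genes it was 17.9% and 17.5%. Protein-coding genes, not limited to those that face no other exon, had 2.21% and 1.37%. 47 of the 118 genes face an exon on the other strand. 13 of these 47 had more reads on that strand than on their own, and none had under 5% of the reads of both strands on its own. The lowest shares were in *Gm17525* (5.49%), *2610020C07Rik* (7.69%) and *1190007F08Rik* (13.2%). The part of such reads from the other strand in these counts was not tested.

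The ratios of lincRNA genes were compared with those of their coding neighbours. For 24 divergent pairs, with starts a median of 139 bases apart, Pearson's r of the log2 ratios was 0.37 and Spearman's rho 0.36, and 11 of the 24 pairs lay on the same side of the median gene. For 36 antisense pairs in which the coding gene had 10 or more reads, r was 0.23 and rho 0.04, with 17 of 36 on the same side, and for 35 genes in none of these places and their nearest coding gene r was 0.14 and rho 0.04, with 16 of 35 on the same side. All pairs come from the same 2 libraries and many rest on few reads, so these are descriptions.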

How the data were processed

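The deposited files, one for each cell type, list reads that the authors mapped with Bowtie to mm9 (builds and tools per the submitters' processing notes) by chromosome, start, end, strand and sequence. The reads, of 48 nt from SOLiD 3, were aligned to the genome, so reads across splice junctions are not counted. The paper states that it left out mitochondrial and ribosomal reads and those in repeat-masked regions. Whether the deposited files follow that filter was not tested. Exon and intron lengths, as used for RPKM and densities, were not reduced for repeats. The files hold 4271306 and 4399729 reads, with 1 row for each read and no other unit, and 1531216 and 1848069 distinct starts. From them, with Python 3.11.15, reads that overlap the union of a gene's GENCODE M1 exons by 1 base or more on its strand were counted. Ratios took 1 added read after scaling to library totals. Intervals are exact Poisson, Clopper-Pearson and conditional binomial at 95%, and PCR copies, after 15 cycles, are not independent molecules. A count of 0 was set to a floor of 3 reads in bounds on folds, whereas its exact Poisson interval, as plotted, reaches 3.69 reads. The ratio code was tested on simulated data. Named genes are the 10 with most reads, the 8 highest and 8 lowest ratios among those with 50 or more reads, and those on the lists. The genes and lists were chosen with earlier results of these data known. Matches of sequences come from mm9, and microRNA sequences and gene types from RefSeq (GRCm38.p6). 1 gene of the neural marker list was left out of its counts and is not reported here.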

Additional observations from a re-analysis of the deposited data

How the results depend on the processing

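No paired analysis was possible because each cell type has 1 library, and for the same reason no replicate could be left out. The median log2 ratio of the lincRNA genes was 0.19 with library totals, -0.0489 with each start position counted once and -0.15 with median-of-ratios scaling, where the median of all genes was 0.00467 and -0.00336. With totals that leave out the 10 genes with most reads it was 0.05, with 0.5 read added 0.20, with gene-body reads -0.04, with 50 or more reads 0.39, with reads of sequences found once 0.12, by 5′ base or with no same-strand exon overlap 0.19, for RefSeq noncoding genes -0.04 and for genes with mostly unique reads 0.24. With genes at 0 set to the floor of 3 reads, and nothing added, the median was 0.21. The counts of 31 genes over 2-fold higher and 19 lower became 7 and 3 among genes with 50 or more reads, a smaller set, and stayed within 1.5 times under the other alternatives. These were start positions counted once, reads of sequences found once, both other scalings, 0.5 read added, assignment by 5′ base, no exon overlap on the same strand, gene-body reads and, chosen after seeing the data, RefSeq noncoding genes and genes with 50% or more reads of sequences found once. The share of library reads in the lincRNA genes, 0.0713% and 0.0887%, became 0.115% and 0.132% of distinct starts, 0.0807% and 0.0940% of reads of sequences found once, and 0.0462% and 0.0782% without *Lncenc1*, an alternative also chosen after seeing the data. Of 14 named genes past 2-fold, 12 remained so with start positions counted once (*Lncenc1* at -0.88 and *9930104L06Rik* at 0.93 did not) and 13 with median-of-ratios scaling (*9930104L06Rik* at 0.98). *Platr4* and *Tdrd5* passed 2-fold under some scalings, at -1.26 and -1.31 with median of ratios. Depth limits most of the 118 genes: 70 have 10 to 19 reads, for which a ratio near 2-fold lies within counting error.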
